A study of Mus with 6 samples.

Results

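The genes described here are 10 that mark or drive blood vessels: Pecam1, Cdh5, Vwf, Plvap, Eng, Kdr, Flt1, Tek, Vegfa and Angpt2. They were chosen by their function, with earlier results of these data known. Looked up by Ensembl ID, 10 of 10 were found among the 15646 genes of the count table. All 10 also passed the filter on low counts, which left 14348 genes for testing. The tumors were mouse pancreatic ductal adenocarcinomas grown from the KPC1199 cell line after placement in the pancreas. The hosts were ob/ob mice, which make no functional leptin and become obese (3 libraries, called obese 1, 3 and 4 after their titles), or lean wild-type mice (3 libraries, lean 1, 2 and 3). The tumor line was the same in both groups, and no treatment is named. The labels give no age, sex, strain, time after implantation or batch. They also do not say whether each library came from a separate mouse, so a p-value here reflects the scatter among libraries, part of which may be technical.

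Endothelial cells line the vessels and hold to one another through junction proteins. Vessel growth is driven by vascular endothelial growth factor, encoded by Vegfa, which acts through the receptor tyrosine kinases encoded by Kdr (VEGFR2, the main signaling receptor) and Flt1 (VEGFR1, which binds the ligand tightly and in its soluble form captures it). Vessel stability is set by the angiopoietins and their receptor TIE2, encoded by Tek. Angiopoietin 1 activates TIE2, and angiopoietin 2, encoded by Angpt2, is made by activated endothelium and often opposes it. Pancreatic ductal adenocarcinoma is known as a tumor with few and compressed vessels in a dense stroma.

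Cdh5, Vwf and Angpt2 were higher in the tumors of obese mice. The rise was 1.55-fold for Cdh5, 1.46-fold for Vwf and 2.64-fold for Angpt2, the last with overlap between the groups. None of these 3 genes passed the test when lean 2, lean 3, obese 1 or obese 4 was left out. The results that follow are from all 6 libraries. The growth factor Vegfa and the receptors Kdr, Flt1, Tek and Eng did not pass the test, and neither did Pecam1 and Plvap. Calls are genes with an adjusted p under 0.05 in edgeR's quasi-likelihood test with Benjamini-Hochberg adjustment over all 14348 genes. Of the 10 genes, 3 were called higher and 0 lower. At an unadjusted p under 0.05 these counts were 4 and 0, and DESeq2 and limma-voom also called 0 lower. The called share was 30.0% of the 10 genes, beside 20.8% of all genes tested, in the higher direction 30.0% beside 10.3%, and in the lower direction 0 genes beside 10.6%. For Pecam1, Cdh5 and Vwf every obese library lay above every lean one. These are 30.0% of the 10 genes, all higher in obese hosts, where 20.3% of all genes tested were higher without overlap, 20.0% lower and 40.3% either. With 10 genes the share moves in large steps, and no test of the set was made. The median log2 fold change was 0.30 over the 10 genes and 0.01 over all genes tested, of which the upper quartile was 0.33. In whole-tumor RNA, more endothelial cells and more RNA of a gene per cell cannot be told apart.

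**Figure D1:**
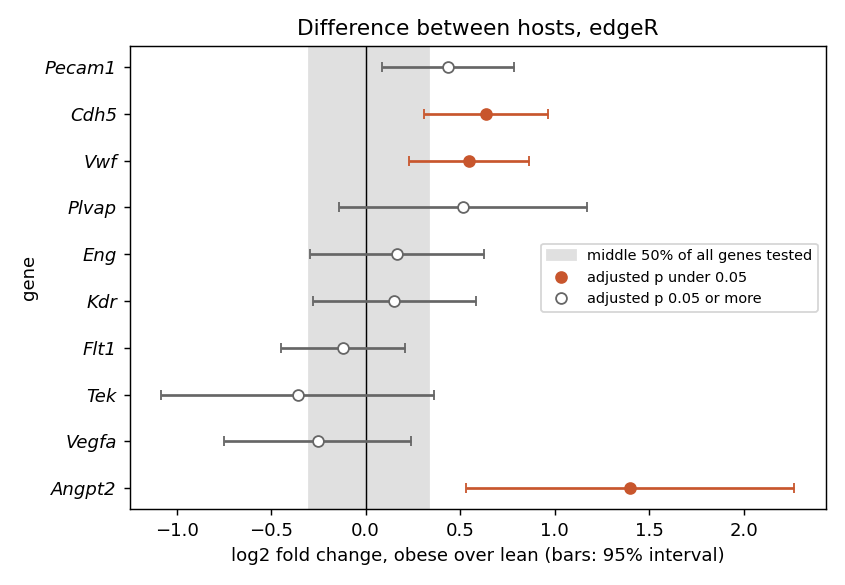
Log2 fold change of each gene, obese over lean (x axis), with its 95% interval from edgeR; filled points passed the test and the grey band spans the quartiles of all genes tested, -0.30 to 0.33. Only the points of Cdh5 (0.64), Vwf (0.55) and Angpt2 (1.40) are filled, and Flt1, Tek and Vegfa lie below 0.

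The libraries held 7122533 to 8521244 counts. Levels below are CPM (counts scaled to library size) after TMM scaling, and they compare libraries for 1 gene, not genes with each other, because no transcript lengths were used. The 10 genes together took 0.102% to 0.136% of the counts in lean and 0.106% to 0.133% in obese libraries, a sum in which Vegfa and Flt1 weigh most. Between 24 and 7638 counts stood behind each single value. The lists of pericyte, lymphatic, leukocyte, platelet, fibroblast, epithelial and other genes were fixed by symbol, and 0 of their 108 symbols could be matched to the table's Ensembl IDs. The part of other cell types in the values was therefore not tested.

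Pecam1 and Cdh5 encode CD31 and VE-cadherin, adhesion proteins of the endothelial junction. VE-cadherin is close to exclusive to endothelium, whereas CD31 is also present on platelets and some leukocytes. Cdh5 (ENSMUSG00000031871.9; GRCm38 chromosome 8, 104101613 to 104144504) stood at 63.5, 47.6 and 44.1 CPM in lean 1, 2 and 3 and at 84.1, 71.0 and 86.4 CPM in obese 1, 3 and 4. Every obese library lay above every lean one, with lean 1 and obese 3 the nearest neighbours. The means were 51.7 ± 10.4 and 80.5 ± 8.32 CPM (SD, n = 3 each). The log2 fold change was 0.64 with a standard error (SE) of 0.15 (edgeR adjusted p = 0.0154).

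Pecam1 (ENSMUSG00000020717.19; chromosome 11, 106654213 to 106715281) was measured at 41.1, 36.2 and 28.7 CPM in lean 1, 2 and 3, and at 54.6, 42.8 and 46.0 CPM in obese 1, 3 and 4. The groups again did not overlap, but lean 1 and obese 3 were less than 2 CPM apart. The difference did not pass the test, at a log2 fold change of 0.44 (SE 0.16, edgeR adjusted p = 0.0727). Its 95% interval ran from 1.06-fold to 1.72-fold. Both junction genes were lowest in lean 3, and the highest library was obese 1 for Pecam1 and obese 4 for Cdh5.

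**Figure D2:**
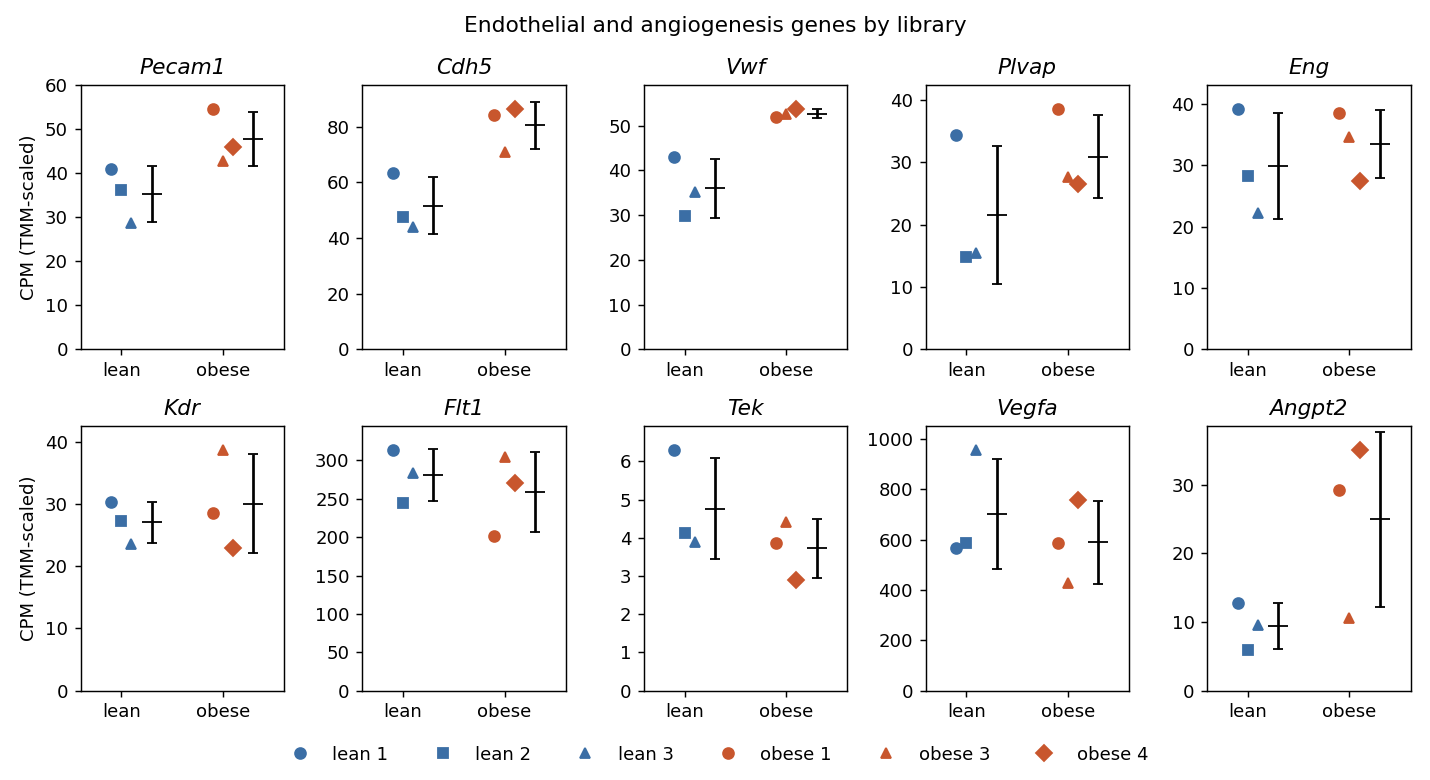
CPM of each gene (y axis, from 0) in the 3 lean and 3 obese libraries, 1 symbol per library, with the group mean and SD beside them in black. Obese and lean libraries do not overlap for Pecam1, Cdh5 and Vwf, and Angpt2 is high in obese 1 and obese 4 (29.2 and 35.0 CPM) but not in obese 3 (10.6 CPM).

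Vwf and Plvap encode products of particular vessel segments. Von Willebrand factor is the clotting protein that endothelium stores and releases, and it is also made by megakaryocytes. Vwf (ENSMUSG00000001930.17; chromosome 6, 125552948 to 125686679) was at 43.0, 29.8 and 35.2 CPM in lean 1, 2 and 3. In obese 1, 3 and 4 it was at 51.8, 52.5 and 53.7 CPM, nearly the same value each time. The means were 36.0 ± 6.61 and 52.7 ± 0.952 CPM (SD, n = 3 each). With no overlap between groups, Vwf rose by a log2 fold change of 0.55 (SE 0.14, edgeR adjusted p = 0.0236).

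Plvap encodes the protein of the diaphragms that span the pores of permeable capillaries. Plvap (ENSMUSG00000034845.6; chromosome 8, 71497753 to 71511806) was at 34.4 CPM in lean 1 but at 14.8 and 15.5 CPM in lean 2 and 3. Obese 1, 3 and 4 had 38.6, 27.6 and 26.5 CPM. Lean 1 thus lay within the obese range, and the other lean libraries lay well below it. With all 6 libraries the log2 fold change was 0.51 (SE 0.30, edgeR adjusted p = 0.239, 95% interval 0.906-fold to 2.25-fold). Without lean 1 it was 1.03 (edgeR adjusted p = 0.013), and without lean 2 or lean 3 it was 0.30 or 0.32.

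The receptors showed no common direction. Kdr (ENSMUSG00000062960.10; chromosome 5, 75932827 to 75979072) was at 30.3, 27.3 and 23.7 CPM in lean 1, 2 and 3 and at 28.6, 38.7 and 22.9 CPM in obese 1, 3 and 4. The highest and the lowest of the 6 values were both in obese tumors. The log2 fold change was 0.15 (SE 0.20, edgeR adjusted p = 0.613), with an interval from 0.824-fold to 1.5-fold. Leaving out obese 3 turned it to -0.06.

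Flt1 (ENSMUSG00000029648.13; chromosome 5, 147561604 to 147726438) was read 1721 to 2639 times per library. It stood at 313, 245 and 284 CPM in lean 1, 2 and 3 and at 202, 304 and 270 CPM in obese 1, 3 and 4. The groups overlapped, with obese 1 the lowest of all. Its log2 fold change was -0.12 (SE 0.15, edgeR adjusted p = 0.603), with an interval from 0.734-fold to 1.16-fold. Without obese 1 the value was 0.03.

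Tek (ENSMUSG00000006386.15; chromosome 4, 94739086 to 94874976) was the scarcest of the 10 by counts, with 53, 29 and 31 in lean 1, 2 and 3 and 33, 36 and 24 in obese 1, 3 and 4. These counts correspond to 6.29, 4.12 and 3.88 CPM in the lean and 3.87, 4.40 and 2.90 CPM in the obese libraries. Lean 1 was the highest and obese 4 the lowest, with the other 4 between 3.87 and 4.40 CPM. A log2 fold change of -0.36 (SE 0.33, edgeR adjusted p = 0.463) came with an interval from 0.473-fold to 1.29-fold. Neither a rise nor a loss within that range was excluded.

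Eng encodes endoglin, a coreceptor for ligands of the TGF-beta family that is strong on proliferating endothelium and is also found on stromal and some myeloid cells. Eng (ENSMUSG00000026814.16; chromosome 2, 32646595 to 32682669) was at 39.2, 28.3 and 22.2 CPM in lean 1, 2 and 3 and at 38.5, 34.6 and 27.5 CPM in obese 1, 3 and 4. The ranges overlapped almost fully, since lean 1 was the highest of the 6. The log2 fold change was 0.17 (SE 0.21, edgeR adjusted p = 0.603, interval 0.815-fold to 1.54-fold), and it was -0.01 without lean 3.

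Of the ligands, Angpt2 passed the test and Vegfa did not. Angpt2 (ENSMUSG00000031465.6; chromosome 8, 18690263 to 18741562) had 107, 42 and 76 counts in lean 1, 2 and 3, that is 12.7, 5.96 and 9.51 CPM. In obese 1, 3 and 4 it had 249, 87 and 290 counts, or 29.2, 10.6 and 35.0 CPM. Obese 1 and obese 4 were far above all lean libraries, whereas obese 3 lay between lean 3 and lean 1, so the groups overlapped. The means were 9.39 ± 3.37 and 24.9 ± 12.7 CPM (SD, n = 3 each). The log2 fold change of 1.40 (SE 0.39, edgeR adjusted p = 0.0300) was the greatest of the 10 genes, and 1.97% of all genes tested had a higher one. The interval was wide, 1.45-fold to 4.81-fold, and limma-voom did not call the gene (log2 fold change 1.28, adjusted p = 0.0737). DESeq2 did, at 1.40 (adjusted p = 0.00176). Without obese 3 the value was 1.77 (edgeR adjusted p = 0.00128), and without obese 4 it was 1.08 (edgeR adjusted p = 0.102).

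Vegfa (ENSMUSG00000023951.18; chromosome 17, 46016993 to 46032377), which tumor cells and macrophages also make, especially when short of oxygen, was read 3500 to 7638 times per library. It was at 567, 589 and 956 CPM in lean 1, 2 and 3 and at 585, 428 and 757 CPM in obese 1, 3 and 4. Lean 3 was the highest and obese 3 the lowest, and the ranges of the groups overlapped widely. The log2 fold change was -0.25 (SE 0.22, edgeR adjusted p = 0.446, interval 0.595-fold to 1.18-fold), and it was 0.03 without lean 3. Higher Angpt2 and Cdh5 in obese hosts were thus not accompanied by a called difference in Vegfa.

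The 3 calls depended on which libraries entered the fit. Without lean 2, lean 3, obese 1 or obese 4, edgeR called 0 of the 10 genes, and 4, 3, 3 and 4 of them had an unadjusted p under 0.05. In those fits the called share of all genes also dropped, to 7.99%, 10.4%, 9.92% and 13.2%. Cdh5 then had adjusted p-values of 0.0522 to 0.0700, Vwf of 0.0621 to 0.0845 and Angpt2 of 0.0891 to 0.120. Without obese 3 the calls were again 3, beside 20.8% of all genes tested. Without lean 1 they were 5, beside 17.8% of all genes tested, with Pecam1 (log2 fold change 0.56, edgeR adjusted p = 0.0486) and Plvap added. The direction of Pecam1, Cdh5, Vwf, Plvap and Angpt2 was upward and that of Tek downward in each of these 6 fits, while Kdr, Flt1, Vegfa and Eng each changed sign in 1 of them.

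**Figure D3:**
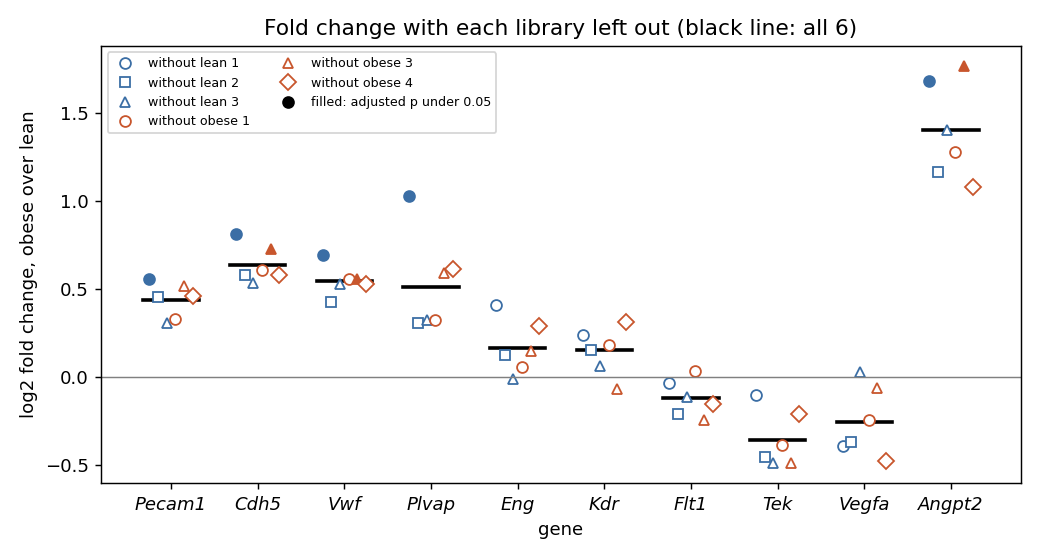
Log2 fold change, obese over lean (y axis), with each library left out in turn (symbols) and with all 6 (black line); filled symbols passed the edgeR test. Cdh5, Vwf and Angpt2 pass only without lean 1 or without obese 3, and Kdr, Flt1, Vegfa and Eng each have 1 symbol across 0.

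The highest library of the group was the same for most of the 10 genes in lean but not in obese tumors. Lean 1 had the highest CPM of the lean libraries for 9 of the 10 genes, the exception being Vegfa, for which it was the lowest. Obese 3 was the highest of its group for 3 genes, the receptors Kdr, Flt1 and Tek, and the lowest for 4, namely Pecam1, Cdh5, Vegfa and Angpt2. Obese 1 was the highest for Pecam1, Plvap and Eng, and obese 4 for Cdh5, Vwf, Vegfa and Angpt2. Angpt2 and the 3 kinase receptors thus stood in opposite order in obese 3 compared with its group.

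Levels were then set against the mean log2 CPM of Pecam1 and Cdh5 in the same library, which asks whether a gene moved differently from the junction genes. Of the 8 other genes, Vwf and Plvap differed least between groups on this scale, with obese minus lean differences of 0.02 and 0.06 (log2) that changed sign when single libraries were left out (-0.10 to 0.13 and -0.14 to 0.32). Tek was lower relative to the junction genes in every obese library, at -4.05, -3.57 and -4.33 in obese 1, 3 and 4 against -2.97, -3.26 and -3.12 in lean 1, 2 and 3. The difference was -0.87 (exact permutation test, two-sided, p = 0.1, adjusted p = 0.4 over 8 genes). Flt1 was also lower in every obese library, at 1.57, 2.46 and 2.10 against 2.61, 2.55 and 2.99, a difference of -0.68 (exact permutation test, p = 0.1, adjusted p = 0.4) that was -0.44 without obese 1. With 3 against 3 libraries this test cannot go below 0.1, so no difference on this scale can pass a threshold of 0.05. The reference itself did not overlap between groups. It was 5.68, 5.38 and 5.16 log2 CPM in lean 1, 2 and 3 and 6.09, 5.79 and 5.98 in obese 1, 3 and 4. Lower values of Tek and Flt1 in every obese library therefore do not show that these genes fell.

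The other genes overlapped on the relative scale. Obese minus lean differences were -0.42 for Kdr, -0.35 for Eng, -0.80 for Vegfa and 0.74 for Angpt2 (exact permutation tests, two-sided, p = 0.4, 0.2, 0.2 and 0.3). Single libraries weighed on their size but not on their sign. The difference of Kdr was -0.70 without obese 3 and -0.23 without obese 4, that of Eng -0.20 without obese 4, and that of Vegfa -0.43 without lean 3. For Angpt2 it was 1.18 without obese 3, 0.46 without lean 2 and 0.43 without obese 4. For Kdr, obese 1 and obese 4 fell below all lean libraries, at -1.24 and -1.45, whereas obese 3, at -0.51, lay above them. Cdh5 is 1 of the reference genes and was itself higher in obese hosts, and the reference lay higher in every obese library. A gene that kept its own level therefore appears lower in each obese library on this scale.

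**Figure D4:**
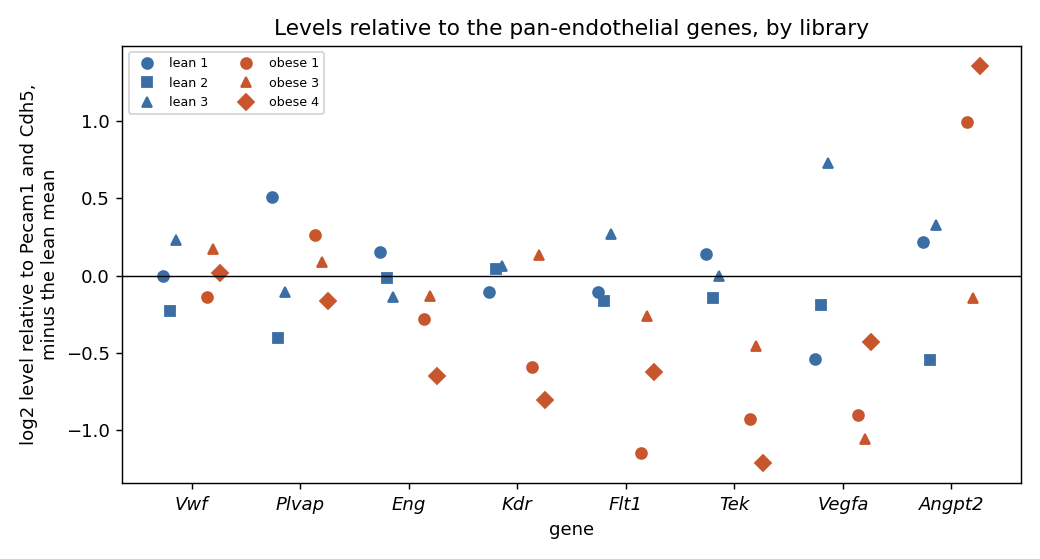
Log2 level of each gene relative to the mean of Pecam1 and Cdh5 in the same library, minus the mean of the lean libraries (y axis), 1 symbol per library. Tek and Flt1 lie lower in all 3 obese than in all 3 lean libraries, and the obese values of Angpt2 reach from within the lean range (obese 3) to far above it. The reference itself is higher in all 3 obese libraries.

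Ratios of ligand to receptor counts within a library do not depend on library scaling. Angpt2 had 2.01, 1.44 and 2.43 times the counts of Tek in lean 1, 2 and 3 and 7.45, 2.40 and 11.9 times in obese 1, 3 and 4 (with 0.5 added to each count). Obese 3 fell just under lean 3, and the other obese tumors stood above every lean one. The mean log2 ratio of lean tumors was 0.94 ± 0.38 and that of obese tumors 2.58 ± 1.19 (SD over 3 libraries). The difference was 3.11-fold (exact permutation test, two-sided, p = 0.2, adjusted p = 0.6 over 4 ratios). With 3 against 3 libraries this test cannot go below 0.1, so none of the 4 ratios could have passed, whatever its size. These are ratios of counts, not of molecules per length.

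The ratio of Vegfa to Kdr was 18.7, 21.5 and 40.3 in lean 1, 2 and 3 and 20.4, 11.1 and 32.9 in obese 1, 3 and 4. That of Vegfa to Flt1 was 1.81 to 3.37 in lean and 1.41 to 2.90 in obese tumors. The balance of the 2 receptors, Flt1 to Kdr, was 8.97 to 12.0 in lean and 7.04 to 11.8 in obese tumors. All 3 overlapped between groups, with log2 differences of -0.38, -0.12 and -0.26 (exact permutation tests, two-sided, p = 0.5, 0.8 and 0.3). The first of these had no stable sign, being 0.03 without obese 3, -0.04 without lean 3 and -0.75 without obese 4. Nor had Vegfa to Flt1, which was 0.22 without obese 3 and 0.11 without lean 3, and -0.28 to -0.34 without obese 4, obese 1 or lean 1. Flt1 to Kdr stayed below 0 in these fits, from -0.11 without obese 1 to -0.48 without obese 4, with -0.15 without lean 3.

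**Figure D5:**
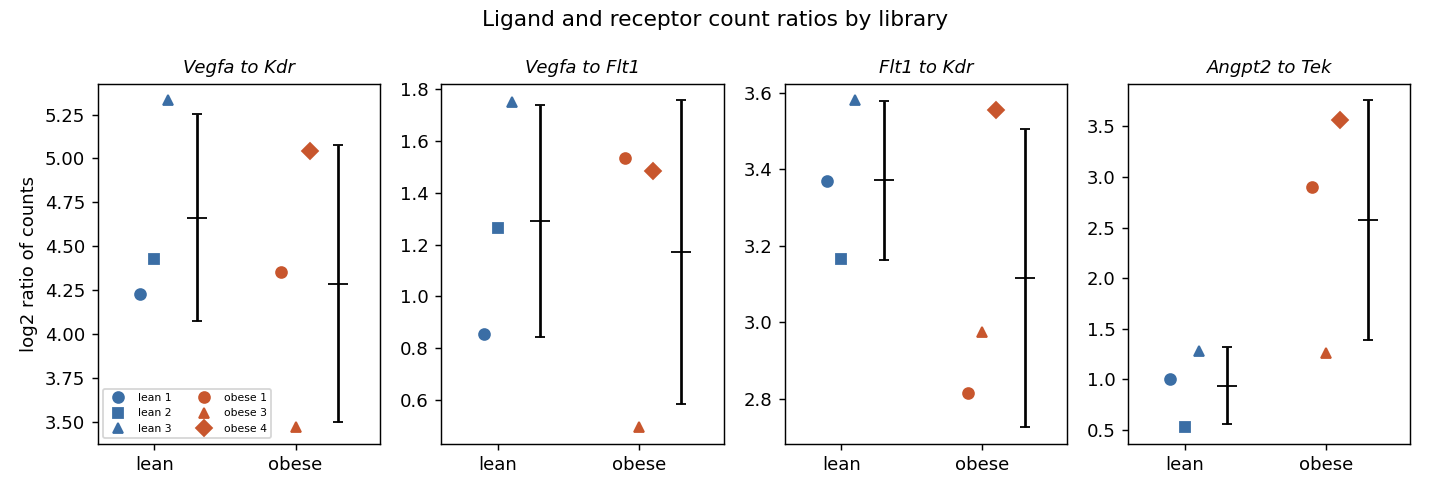
Log2 ratio of the counts of 2 genes in each library (y axis, with its own range in each panel), with the group mean and SD in black. Angpt2 to Tek is high in obese 1 and obese 4, and the other 3 ratios overlap between groups.

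Some of the 10 genes share their span with other genes. By the RefSeq annotation of GRCm38.p6, Angpt2 lies wholly within the span of Mcph1, Eng overlaps Fpgs and small RNA genes, and Plvap overlaps Gtpbp3 and Gm46041. Cdh5, Kdr and Flt1 each overlap 1 long noncoding RNA, and Pecam1, Tek, Vwf and Vegfa overlap none of the listed genes. The RNA was depleted of ribosomal RNA and so includes unspliced transcripts, and the strand handling of the counts is not given in the sources used here. Reads of the overlapping partner in the counts of Angpt2, Eng and Plvap were not tested.

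Vwf was the nearest of the other 8 genes to the pattern of Pecam1 and Cdh5 over the 6 libraries. Nearness was measured as the root mean square difference of centred log2 CPM from the mean of the junction genes, and it was 0.16 for Vwf, 0.25 for Eng and 0.30 for Plvap, up to 0.58 for Vegfa and 0.64 for Angpt2. Of the 14338 genes outside the set, 2.74% were nearer than Vwf and 82.7% nearer than Angpt2. The nearest gene of all was ENSMUSG00000056116.18, at 0.03, with 24.2, 19.0 and 16.8 CPM in lean 1, 2 and 3 and 31.1, 26.4 and 28.2 CPM in obese 1, 3 and 4 (log2 fold change 0.51, edgeR adjusted p = 0.0546). The next was ENSMUSG00000029715.5, at 0.05, with 4.13 to 5.46 CPM in lean and 6.24 to 7.27 CPM in obese tumors (edgeR adjusted p = 0.172). Among so many genes a close match over 6 libraries is easily found.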

How the data were processed

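The authors deposited raw counts per gene for 6 libraries; per the labels' protocols they came from total RNA depleted of ribosomal RNA. The submitters' processing notes name GRCm38, CASAVA, STAR and Subread, with versions not given in the sources used here. Genes are listed by Ensembl ID. Symbols of the 10 genes came with the definition of the set, their positions from RefSeq by symbol. Titles starting with OB were taken as obese and those with ND as lean. The genes and lists were chosen with earlier results of these data known.

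The test was that of edgeR 4.0.16 (R 4.3.3): expression filter at defaults (minimum count 10, minimum total 15), TMM factors, two-sided quasi-likelihood F test, no covariates. The SE is the log2 fold change divided by the square root of F, and 95% intervals use the fitted degrees of freedom. Log2 CPM used a prior count of 2. All 10 genes are named, as are the 2 genes nearest in pattern. Alternatives were other scalings and filters, DESeq2 1.42.0, limma-voom (limma 3.58.1), a replicate block and leaving out each library. The test was also run on simulated data, with the outcome not reported here. With 0 of 49997 RefSeq entries carrying an Ensembl ID, the other lists could not be looked up, and no sequences are shown.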

Additional observations from a re-analysis of the deposited data

How the results depend on the processing

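The number of the 10 genes called stayed at 3, all higher, with DESeq2, with no filter or one on CPM, and with scaling by RLE, upper quartiles or totals alone, and was 2 with limma-voom. In these fits 18.6% to 21.0% of all genes tested were called. Leaving out 1 library gave 0 to 5 calls, all of them higher, beside 7.99% to 20.8% of all genes tested. Scaling by totals alone moved the share of higher genes among all calls from 49.3% to 60.6% and the median over all genes tested from 0.01 to 0.07 (log2), without changing a call among the 10. Signs reversed for 4 genes that were not called, each when 1 library was left out; these fits gave log2 fold changes of -0.065 (without obese 3) to 0.31 for Kdr, -0.24 to 0.033 (without obese 1) for Flt1, -0.47 to 0.029 (without lean 3) for Vegfa and -0.012 (without lean 3) to 0.41 for Eng, and the cause was not tested. Deviations of lean 1 correlated with those of obese 1 at 0.090, and deviations of lean 3 with those of obese 3 at 0.074. These same-number values were small but the highest of all lean and obese combinations, the others running from -0.131 to 0.066. The main fit did not treat libraries of equal number as pairs, and whether they are pairs was not tested further. The replicate block leaves the comparison to the 4 libraries numbered 1 and 3. With it, 1 of the 10 genes was called, beside 14.5% of all genes tested. The called gene was Cdh5, in the higher direction (log2 fold change 0.54, edgeR adjusted p = 0.0262). Vwf was at 0.42, Angpt2 at 0.72 and Vegfa at -0.56 (edgeR adjusted p = 0.104, 0.0820 and 0.0635), and none of them was called. At an unadjusted p under 0.05 this fit had 5 genes higher and 1, Vegfa, lower. The prior count and pseudocount moved the relative levels and count ratios by at most 0.03 (log2); single libraries moved them more, and turned the sign of Vegfa to Kdr (-0.75 to 0.034), Vegfa to Flt1 (-0.34 to 0.22), relative Vwf (-0.10 to 0.13) and relative Plvap (-0.14 to 0.32). Depth bears on Tek, which had 24 to 53 counts per library.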
